A study of Mus musculus with 13 samples.

Results

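Klf2, S1pr1, S1pr4, Klf3, Foxo1, Igfbp4, Il6ra and Dapl1, genes of thymic egress and naive T cell homing, were followed in regulatory T cells (Tregs) and their thymic precursors with and without c-Rel. These 8 genes were chosen by symbol, with earlier results of these data known. They were found in every count table, out of 22048 genes that the tables share. Each passed the filter on low counts in every comparison. c-Rel, encoded by Rel, is a subunit of the NF-kappaB transcription factor family. Bulk RNA sequencing covered 13 libraries of sorted CD4 T lineage cells from C57BL6/J mice carrying the Foxp3rfp reporter, which all groups share. The groups were cRel-/- pre-Tregs of the thymus (3 libraries) and cRel+/+ pre-Tregs (2), cRel-/- de novo Tregs of the thymus (2) and cRel+/+ de novo Tregs (2), and cRel-/- splenic Tregs (2) and cRel+/+ splenic Tregs (2). These are called knockout and wild type here. The age of the mice, the sort gates, any pooling of animals and whether libraries came from separate animals are not stated by the labels, so p-values measure only the spread between these libraries, which may be technical. The labels name no Cre or cell-type-restricted allele, so other cells of the knockout mice may also lack c-Rel.

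As background, maturing thymocytes leave the thymus along a gradient of sphingosine 1-phosphate (S1P), which they sense with S1PR1 on the surface. The transcription factor KLF2 drives S1pr1, and FOXO1 acts upstream of Klf2, Ccr7 and Il7r in resting T cells. Tregs must pass through the same programme to leave the thymus for the spleen and lymph nodes, and many lower it again once activated.

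RefSeq promoter windows (build GRCm38.p6) were matched for 7 of the 8 genes, and S1pr1 had none. Motifs were searched on both strands of up to 250 bases before the start of each gene: a kappaB consensus, the FOXO core GTAAACA and the KLF box CACCC. The windows of Igfbp4 (chr11:99040994-99041243, plus strand) and Il6ra (chr3:89913197-89913446, minus strand) are shown because these genes rose without c-Rel in de novo Tregs, and that of Dapl1 (chr2:59484403-59484652, plus strand) because it alone of the 7 held the FOXO core. Each reads 5′ to 3′ in lower case, with a FOXO core or KLF box match in capitals.
Igfbp4: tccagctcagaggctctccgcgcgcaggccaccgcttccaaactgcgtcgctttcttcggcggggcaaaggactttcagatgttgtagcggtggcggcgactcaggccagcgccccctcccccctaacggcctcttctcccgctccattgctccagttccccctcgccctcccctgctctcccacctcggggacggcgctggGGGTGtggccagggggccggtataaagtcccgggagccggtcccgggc
Il6ra: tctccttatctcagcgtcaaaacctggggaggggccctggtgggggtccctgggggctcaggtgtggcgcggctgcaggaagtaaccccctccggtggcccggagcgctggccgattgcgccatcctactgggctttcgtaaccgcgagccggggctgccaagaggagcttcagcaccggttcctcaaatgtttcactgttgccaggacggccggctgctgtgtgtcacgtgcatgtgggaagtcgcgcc
Dapl1: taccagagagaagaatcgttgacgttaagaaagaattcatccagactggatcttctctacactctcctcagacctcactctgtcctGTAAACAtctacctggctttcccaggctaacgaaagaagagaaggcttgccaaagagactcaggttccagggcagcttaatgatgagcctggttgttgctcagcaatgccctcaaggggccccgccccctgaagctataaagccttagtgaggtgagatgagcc
The kappaB consensus had a match in 0 of the 7 windows, and in 3.9% of 32851 RefSeq promoter windows of 250 bases. The stretch searched was shorter for Klf3 (117 bases), Klf2 (221) and Foxo1 (249), and S1pr1 was not searched. The FOXO core of Dapl1 lay 164 to 158 bases before its start, and 3.17% of all windows held one. The KLF box of Igfbp4 lay 48 to 44 bases before its start, and Klf3 and S1pr4 held the box as well, as did 52.0% of all windows. A match describes letters only and none of these windows was assayed here.

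Library totals ran from 13656304 to 35114430 counts, and the 5 pre-Treg libraries had a larger spread between replicates (biological coefficient of variation 0.284) than the de novo (0.0939) and splenic ones (0.131). Levels are given as CPM, read counts relative to library size, scaled by TMM over all 13 libraries, and a floor of 3 counts stood at no more than 0.22 CPM. The words called, rose and fell mean an adjusted p under 0.05 (edgeR quasi-likelihood test, Benjamini-Hochberg over all genes tested). Of 12 CD4 T cell and Treg markers, all reached 1 CPM in every group. Foxp3, the lineage factor of Tregs, had 19.8 to 49.1 CPM in knockout pre-Tregs and 32.5 and 101 CPM in wild-type pre-Tregs, and group means of 745 to 830 CPM at the later stages. Rel, the targeted gene, averaged 57.7 ± 7.25 CPM in knockout and 102 ± 2.78 CPM in wild-type pre-Tregs, 96.7 ± 6.55 and 103 ± 1.86 CPM in knockout and wild-type de novo Tregs, and 44.7 ± 1.91 and 51.9 ± 6.66 CPM in knockout and wild-type splenic Tregs (SD). The knockout libraries were lower at each stage, with 0 calls, and gene-level counts do not show which exons were read, so they do not check the genotype labels. In bulk samples, fewer cells of a type and less RNA per cell cannot be told apart.

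Across stages, most of the 8 genes were far higher in de novo Tregs than in pre-Tregs, in both genotypes. In knockout, 6 of the 8 rose over pre-Tregs (Klf2, S1pr1, S1pr4, Klf3, Foxo1 and Il6ra) and 0 fell, where 32.4% of 13058 genes were called and 15.4% called higher. In wild type, 5 of the 8 rose (the same without Foxo1) and 0 fell, where 30.7% of genes were called and 16.1% called higher. The median log2 fold change over the 8 genes was 2.04 in knockout and 1.24 in wild type, beside −0.058 and −0.0015 over all genes tested. Since the 8 genes were chosen with earlier results of these data known, such comparisons with all genes only describe. Fewer moved between splenic and de novo Tregs. In knockout, 1 of the 8 rose (Dapl1) and 1 fell (S1pr1), where 12.9% of genes were called, 6.48% higher and 6.39% lower. In wild type 1 rose (Dapl1) and 0 fell, where 7.45% of genes were called and 3.5% called higher. Each stage was counted in a table of its own, and the spleen differs in tissue as well, so stage, table and tissue cannot be told apart. The knockout and wild-type stage comparisons come from separate libraries. The summed level of 8 immature thymocyte markers was lower in de novo Tregs than in pre-Tregs. It was 158.5 to 194 CPM in knockout de novo Tregs and 334 to 1028 CPM in knockout pre-Tregs. In wild type it was 193 to 211 CPM in de novo Tregs and 255 to 419 CPM in pre-Tregs. Of the 8 markers, 4 fell in knockout and 3 in wild type, where 32.4% and 30.7% of all genes were called. The part of these markers in the rise of the egress genes was not tested.

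**Figure D1:**
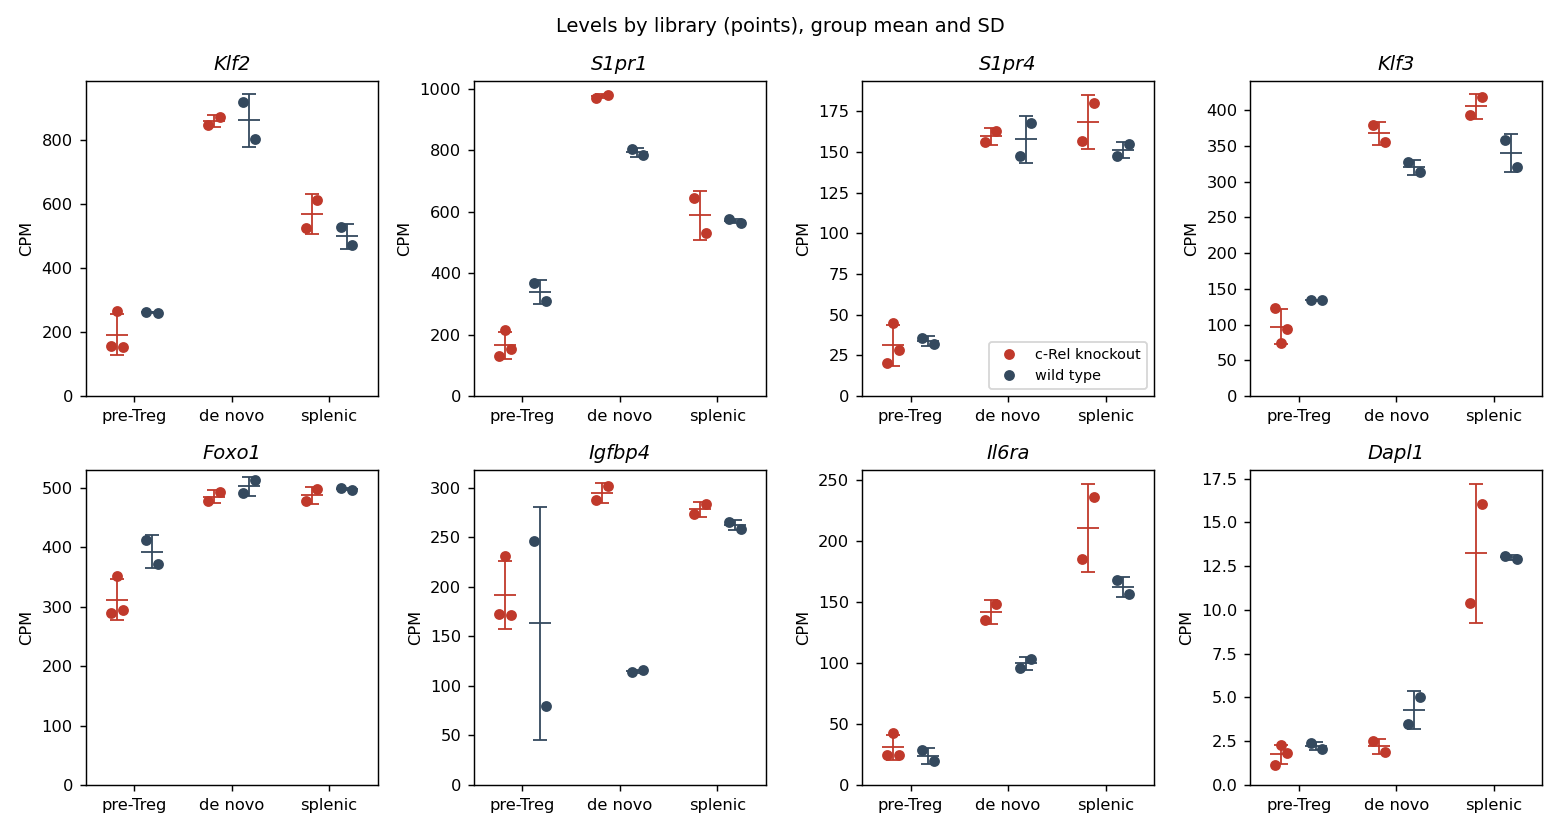
Levels of the 8 genes in CPM on a linear axis from 0, by stage, with knockout libraries left of wild-type ones; points are libraries and bars the group mean with its SD. Klf2, S1pr1, S1pr4, Klf3 and Il6ra step up between pre-Tregs and de novo Tregs, and the Igfbp4 libraries of wild-type de novo Tregs, at 114 and 116 CPM, lie below the 288 and 302 CPM of the knockout.

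Scaled per kilobase of exon, Klf2 was the highest of the 8 in all 6 groups and S1pr1 next. Klf2 averaged 464 ± 9.47 CPM per kilobase in knockout and 465 ± 44.5 in wild-type de novo Tregs (SD, n = 2 each), and S1pr1 320 ± 2.21 and 261 ± 4.84. The Klf2 and S1pr1 libraries did not overlap on this scale in any group. In wild-type de novo Tregs the order went on with S1pr4 (66.1 CPM per kilobase), Foxo1 (58.0), Klf3 (28.4), Igfbp4 (26.0), Il6ra (11.5) and Dapl1 (6.27), with no overlap between neighbours. In knockout de novo Tregs Igfbp4 stood higher in the order, at 66.8 CPM per kilobase, and overlapped S1pr4 at 66.8. In pre-Tregs Il6ra and Dapl1 were last and overlapped in both genotypes, at 3.56 and 2.57 CPM per kilobase in knockout and 2.78 and 3.27 in wild type. In splenic Tregs this pair overlapped again, at 24.4 and 19.5 in knockout and 18.8 and 19.2 in wild type.

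**Figure D2:**
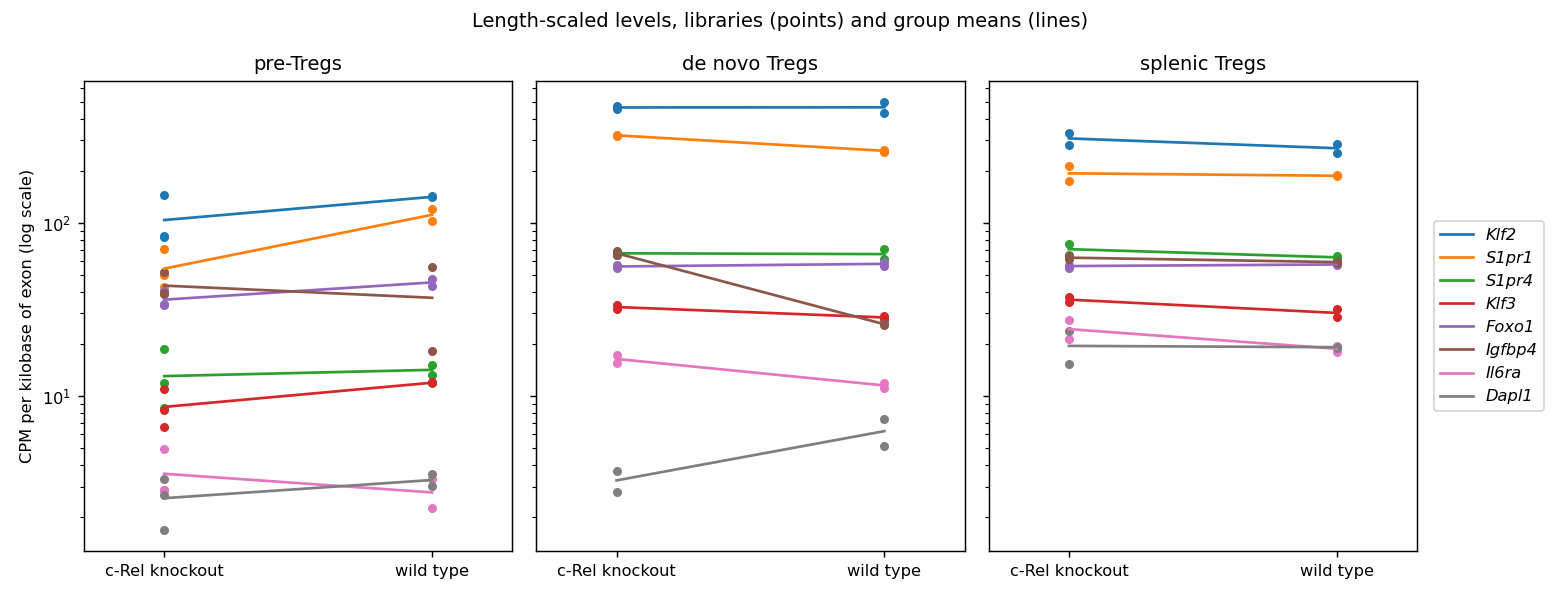
CPM per kilobase of exon on a log axis for each gene, one panel per stage, knockout left and wild type right; points are libraries and lines join group means. Klf2 and then S1pr1 lead in every panel, and the Igfbp4 line drops from the knockout to the wild-type side in de novo Tregs.

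Klf2 (chr8:72319033-72321656, plus strand, GRCm38), the zinc finger factor that drives S1pr1, had 154, 155 and 267 CPM in knockout pre-Tregs, against 259 and 263 CPM in wild-type pre-Tregs. In de novo Tregs it had 845 and 870 CPM in the knockout and 801 and 917 CPM in wild type, and in splenic Tregs 524 and 612 against 471 and 527 CPM. The genotypes overlapped at each stage, while de novo libraries of either genotype lay well above all pre-Treg libraries. In de novo over pre-Tregs the log2 fold change was 2.16 in knockout (SE 0.20, edgeR adjusted p = 1.06e-05) and 1.72 in wild type (SE 0.23, adjusted p = 0.000367). In splenic over de novo Tregs Klf2 stood at −0.59 in knockout on the log2 scale (SE 0.22, adjusted p = 0.11) and −0.78 in wild type (SE 0.23, adjusted p = 0.0537). With only the libraries of those 2 stages in the fit, an alternative added after the data were seen, Klf2 fell in both genotypes (adjusted p = 0.00136 and 0.000313 by edgeR). DESeq2, limma-voom and edgeR with no filter on low counts called Klf2 lower in wild type and did not call it in knockout.

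Klf3 (chr5:64803388-64832901, plus strand), a KLF family member that mostly represses genes with CACCC boxes, had 74.8, 93.6 and 124 CPM in knockout pre-Tregs, against 134 and 135 CPM in wild-type pre-Tregs. The order was the other way in de novo Tregs, with 356 and 379 CPM in the knockout and 313 and 327 CPM in wild type, and in splenic Tregs, with 393 and 418 CPM in the knockout and 321 and 358 CPM in wild type. No library of one genotype overlapped the other at any stage, and no stage was called. How often the genotypes stand apart in this way over all genes was not counted. Such an order, here and for the other genes, only describes these few libraries. The log2 fold change of knockout over wild type was −0.45 (SE 0.23, adjusted p = 0.72), 0.20 (SE 0.07, adjusted p = 0.166) and 0.26 (SE 0.10, adjusted p = 0.285) in pre-, de novo and splenic Tregs by edgeR. Klf3 rose in de novo over pre-Tregs by 1.92 in knockout (SE 0.17, edgeR adjusted p = 5.95e-06) and 1.25 in wild type (SE 0.19, adjusted p = 0.000754) on the log2 scale. An antisense model gene, Gm20033, shares 3.59% of the exonic length of Klf3 and had 6 to 16 counts in pre-Tregs, where both are counted.

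Foxo1 (chr3:52268336-52353221, plus strand), the forkhead factor upstream of Klf2, had 290, 294 and 353 CPM in knockout pre-Tregs, against 373 and 412 CPM in wild-type pre-Tregs, with no overlap. De novo Tregs had 478 and 493 CPM in the knockout and 491 and 514 CPM in wild type, and splenic Tregs 478 and 498 against 497 and 500 CPM. In de novo over pre-Tregs it rose in knockout, by a log2 fold change of 0.64 (SE 0.12, edgeR adjusted p = 0.00158). In wild type the change was 0.36 (SE 0.13, adjusted p = 0.0542). For splenic over de novo Tregs the log2 fold changes were 0.01 in knockout and −0.01 in wild type (SE 0.13 each).

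S1pr1 (chr3:115710433-115715072, minus strand), the receptor that carries T cells out of the thymus, showed opposite orders of the genotypes in pre-Tregs and in de novo Tregs. Pre-Tregs had 130, 153 and 214 CPM in the knockout, against 311 and 368 CPM in wild type, so every knockout library was lower. De novo Tregs had 971 and 981 CPM in the knockout, against 784 and 805 CPM in wild type, so every knockout library was higher. Splenic Tregs had 533 and 645 CPM in the knockout and 565 and 575 CPM in wild type, which overlapped. In de novo Tregs S1pr1 rose in the knockout, with a log2 fold change of 0.30 (SE 0.07, edgeR adjusted p = 0.0199), or 1.23-fold. Without wild-type de novo replicate 1 or 2 the adjusted p was 0.0669 or 0.116. In pre-Tregs the knockout was 2.02-fold lower, a log2 fold change of −1.02 (SE 0.24) with adjusted p = 0.575 by edgeR. DESeq2 called that difference (adjusted p = 0.0404), as did edgeR without knockout pre-Treg replicate 2 (adjusted p = 0.0201).

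In the same pre-Treg libraries the summed level of 8 immature thymocyte markers was 1028, 334 and 631 CPM in knockout replicates 1, 2 and 3, and 255 and 419 CPM in wild-type replicates 1 and 2. All 8 markers reached 1 CPM in both groups. S1pr1 had 130, 214 and 153 CPM in those knockout replicates, and 368 and 311 CPM in those wild-type replicates. Within each genotype the library with more of these markers had less S1pr1, over 3 and 2 libraries. Between genotypes that order did not always hold: knockout replicate 2 had a lower marker sum than wild-type replicate 2, and also less S1pr1. Of the 8 markers, 0 were called by genotype in pre-Tregs, where edgeR called 0.0% of all genes. The part of these markers in the S1pr1 difference was not tested.

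Between stages, S1pr1 rose in de novo over pre-Tregs by a log2 fold change of 2.56 in knockout (SE 0.18, edgeR adjusted p = 1.31e-06) and 1.23 in wild type (SE 0.20, adjusted p = 0.00114). In splenic over de novo Tregs it fell in knockout, by −0.73 (SE 0.20, adjusted p = 0.0279), and stood at −0.48 in wild type (SE 0.20, adjusted p = 0.173). The knockout fall ended at an adjusted p between 0.0526 and 0.234 when any 1 of the 8 de novo and splenic libraries was left out. Endothelial cells also express S1pr1 and Klf2. Of 8 endothelial markers, Cdh5, Kdr, Tek, Vwf, Emcn and Plvap were under 1 CPM in all 6 groups, and Egfl7 averaged no more than 3.49 CPM. Pecam1, which T cells also express, made up nearly all of the list's sum, which was 295 to 299 CPM in knockout and 226 to 227 CPM in wild-type de novo Tregs.

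S1pr4 (chr10:81497745-81500132, minus strand), an S1P receptor of blood-forming cells, stepped up between thymic stages with little difference between genotypes. Pre-Tregs had 20.2, 28.5 and 44.7 CPM in the knockout and 31.8 and 35.9 CPM in wild type, and de novo Tregs 156 and 163 against 148 and 168 CPM. Splenic Tregs had 157 and 180 CPM in the knockout, against 147 and 155 CPM in wild type, without overlap and with adjusted p = 0.577 by edgeR. Its log2 fold change of de novo over pre-Tregs was 2.35 in knockout (SE 0.24, edgeR adjusted p = 1.82e-05) and 2.22 in wild type (SE 0.27, adjusted p = 0.000194).

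Igfbp4 (chr11:99041244-99054392, plus strand) encodes a secreted protein that binds insulin-like growth factors and is a marker of naive T cells. In pre-Tregs it had 171, 173 and 231 CPM in the knockout, against 80.0 and 246 CPM in wild type. In de novo Tregs it had 288 and 302 CPM in the knockout, against 114 and 116 CPM in wild type, and in splenic Tregs 273 and 283 against 259 and 266 CPM. The groups overlapped in pre-Tregs, where the wild-type libraries differed 3.08-fold from each other, and stood far apart in de novo Tregs and narrowly apart in splenic Tregs. Igfbp4 rose 2.57-fold in knockout de novo Tregs, a log2 fold change of 1.36 (SE 0.08, edgeR adjusted p = 1.57e-06), and kept its call without any 1 library. Its log2 fold change was 0.25 in pre-Tregs (SE 0.42, adjusted p = 0.858) and 0.09 in splenic Tregs (SE 0.09, adjusted p = 0.74).

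The wild-type de novo libraries were the low point of Igfbp4 among the later stages. Its log2 fold change of splenic over de novo Tregs was −0.09 in knockout (SE 0.34, adjusted p = 0.919 by edgeR) and 1.19 in wild type (SE 0.35, adjusted p = 0.0582). DESeq2, limma-voom and edgeR with no filter on low counts called that wild-type difference. For de novo over pre-Tregs the log2 fold change of Igfbp4 was 0.62 in knockout (SE 0.31, adjusted p = 0.144 by edgeR) and −0.51 in wild type (SE 0.35, adjusted p = 0.275). Without wild-type pre-Treg replicate 1 or 2 that last value was 0.51 (adjusted p = 0.115) or −1.12, a fall (adjusted p = 0.00444). The knockout effect in splenic Tregs minus that in de novo Tregs was −1.28 (SE 0.49, adjusted p = 0.776) in the fit of all libraries, whose spread includes the pre-Tregs. It was −1.27 with an adjusted p of 0.000804 with only the de novo and splenic libraries, an alternative chosen after seeing the data.

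Il6ra (chr3:89864059-89913196, minus strand), the chain that binds interleukin-6 and pairs with the signalling chain Il6st, rose between the thymic stages. Pre-Tregs had 24.7, 24.8 and 42.7 CPM in the knockout and 19.4 and 28.6 CPM in wild type. De novo Tregs had 135 and 148 CPM in the knockout, against 95.7 and 103 CPM in wild type, and splenic Tregs 185 and 236 against 156 and 168 CPM. Every knockout library was above every wild-type one in the later stages, and the groups overlapped in pre-Tregs. Il6ra rose 1.42-fold in knockout de novo Tregs, a log2 fold change of 0.51 (SE 0.09, edgeR adjusted p = 0.00508), and kept its call without any 1 library. In splenic Tregs the log2 fold change was 0.38 (SE 0.13, adjusted p = 0.244), and 0.55 without knockout splenic replicate 1, which left 1 knockout library. Il6ra rose in de novo over pre-Tregs by 2.20 in knockout (SE 0.23, adjusted p = 2.52e-05) and 2.05 in wild type (SE 0.27, adjusted p = 0.000281) on the log2 scale. Splenic over de novo Tregs stood at 0.57 in knockout (SE 0.25, adjusted p = 0.167) and 0.70 in wild type (SE 0.25, adjusted p = 0.114). An antisense model gene, Gm42809, covers 2.80% of its exonic length and had 4 to 17 counts in pre-Tregs.

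Dapl1 (chr2:59484653-59505020, plus strand), a small protein related to Dap and a marker of resting T cells, was the lowest of the 8 per length, except in wild-type pre-Tregs and wild-type splenic Tregs, where Il6ra was. Pre-Tregs had 1.15, 1.83 and 2.26 CPM in the knockout and 2.05 and 2.39 CPM in wild type, which rests on 20 to 67 counts a library. De novo Tregs had 1.91 and 2.52 CPM in the knockout, against 3.49 and 5.03 CPM in wild type. Splenic Tregs had 10.4 and 16.0 CPM in the knockout and 12.9 and 13.1 CPM in wild type, so the groups were apart only in de novo Tregs. There the log2 fold change was −0.94 (SE 0.32, edgeR adjusted p = 0.125). Dapl1 rose in splenic over de novo Tregs, in knockout by 2.58 (SE 0.35, edgeR adjusted p = 0.000551) and in wild type by 1.61 (SE 0.33, adjusted p = 0.0111) on the log2 scale. The wild-type call ended without wild-type de novo replicate 1 (adjusted p = 0.146), splenic replicate 1 (0.0709) or splenic replicate 2 (0.0732).

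**Figure D3:**
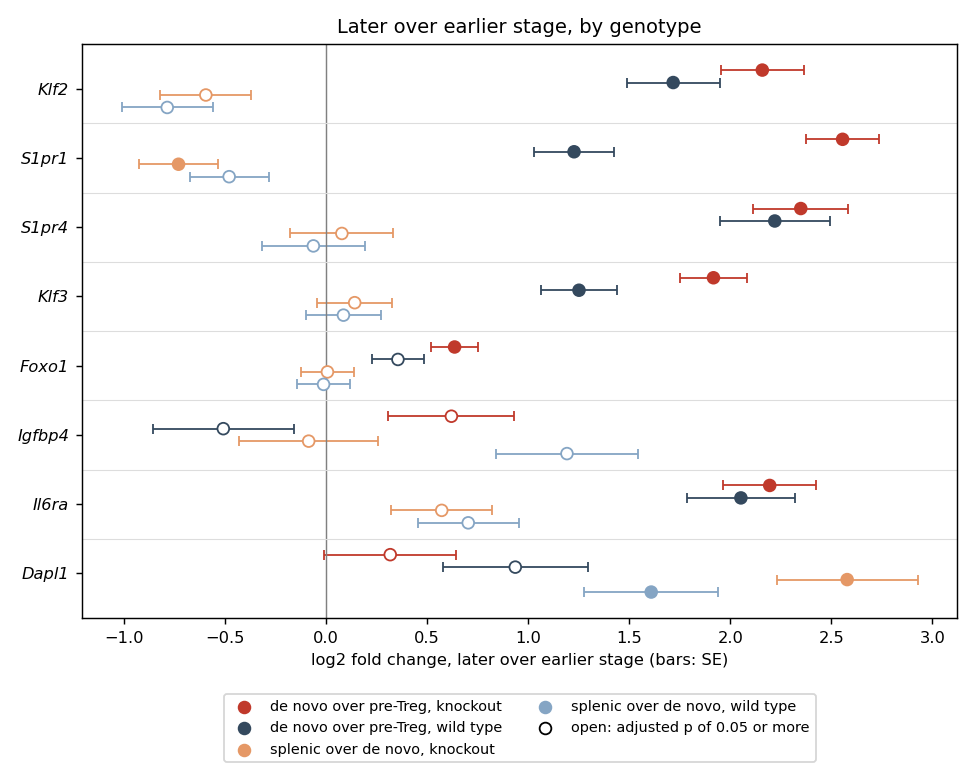
Log2 fold change of each gene of the later over the earlier stage with its SE, in knockout and wild type, with filled points called at an adjusted p under 0.05. Il6ra, S1pr4, Klf2, Klf3 and S1pr1 are filled in both genotypes for de novo over pre-Tregs, and Dapl1 in both for splenic over de novo Tregs.

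Loss of c-Rel was set against wild type at each stage. In pre-Tregs 0 of the 8 were called by edgeR, where 0.0% of 14746 genes were called and 969 had an unadjusted p under 0.05; DESeq2 called 1, S1pr1. In de novo Tregs 3 of the 8 rose (Igfbp4, Il6ra and S1pr1) and 0 fell, where 6.46% of 11855 genes were called and 2.92% called higher. In splenic Tregs 0 of the 8 were called, where 1.37% of 12264 genes were called and 1749 had an unadjusted p under 0.05. The median log2 fold change of knockout over wild type over the 8 genes was −0.32, 0.11 and 0.12 in pre-, de novo and splenic Tregs, beside 0.03, −0.0027 and 0.00055 over all genes tested. With the spread shared over all 13 libraries, which includes that of the pre-Tregs, 0 of the 8 were called in de novo Tregs and S1pr1 was called in pre-Tregs (adjusted p = 0.0226). With 1 splenic library left out at a time, the log2 fold change in splenic Tregs was 0.19 to 0.55 for Il6ra and 0.072 to 0.30 for Klf2. It was 0.18 to 0.34 for Klf3 and 0.053 to 0.26 for S1pr4. Each of those fits left 1 library in a genotype.

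In knockout de novo Tregs the summed level of 8 B and plasma cell markers was 487 and 498 CPM, against 311 and 305 CPM in wild-type de novo Tregs. Xbp1 (455 CPM in knockout and 275 CPM in wild type) made up most of that sum, while Pax5 and Ebf1 were under 1 CPM in both groups. Of the others, Cd79b was called higher (29.8 CPM in knockout and 19.2 CPM in wild type, edgeR adjusted p = 0.0452) and Ms4a1 lower (0.33 CPM in knockout and 1.72 CPM in wild type, adjusted p = 0.0475). The 12 myeloid and dendritic cell markers summed to 132 to 153 CPM in the knockout and 161 CPM in both wild-type libraries. The 7 CD8 T and NK cell markers summed to 64.4 to 75.3 against 218 to 226 CPM. Of the 6 CD8 T and NK markers tested, 1 was called lower and 0 higher, where 6.46% of all genes were called. Their median log2 fold change was −0.15. The median marker of the 7 averaged 3.48 CPM in knockout and 4.44 CPM in wild type. The 6 erythroid markers summed to 0.63 and 0.99 CPM in the knockout and to 111 and 3.09 CPM in wild-type replicates 1 and 2. The part of these markers in the Igfbp4, Il6ra and S1pr1 differences was not tested.

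**Figure D4:**
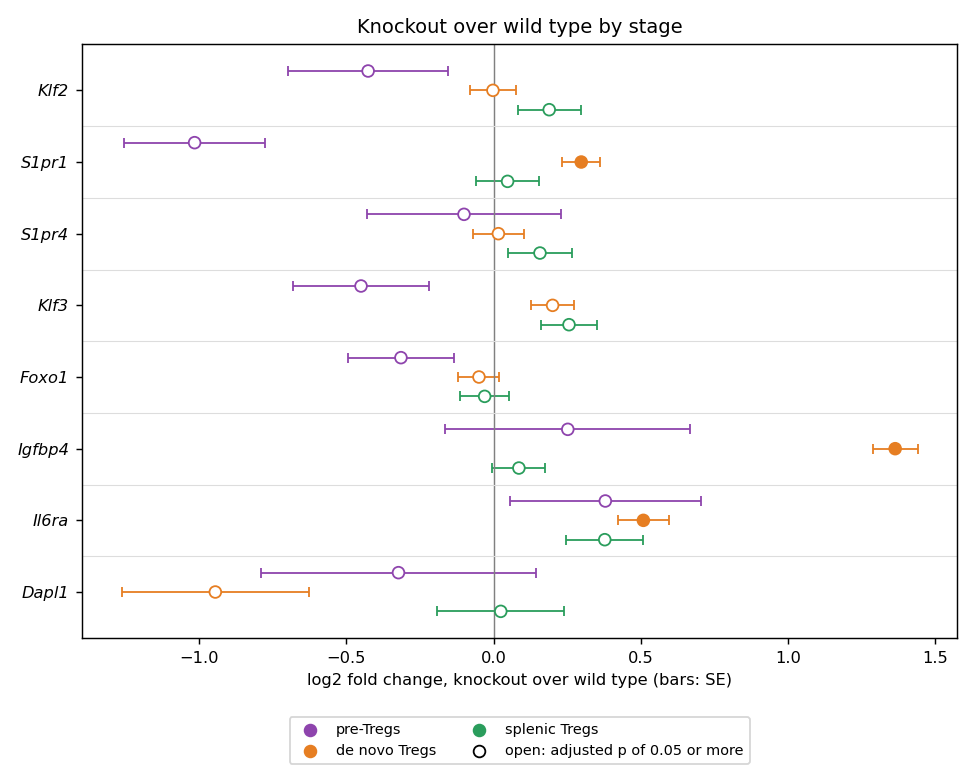
Log2 fold change of knockout over wild type with its SE for each gene in pre-, de novo and splenic Tregs, with filled points called at an adjusted p under 0.05. Only the de novo values of S1pr1 (0.30), Igfbp4 (1.36) and Il6ra (0.51) are filled, and the SEs of pre-Tregs are the widest.

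Whether the effect of c-Rel loss differed between stages was tested in the fit of all libraries. The joint test called 0 of the 8 genes, where 0.161% of 13058 genes were called and 1374 had an unadjusted p under 0.05. S1pr1 came nearest, with an adjusted p of 0.0828 by edgeR. DESeq2 called S1pr1 alone among the 8. Its knockout effect in de novo Tregs minus that in pre-Tregs was 1.33 (SE 0.27, adjusted p = 0.077), with 1.18 without knockout pre-Treg replicate 1 (adjusted p = 0.0317) and 1.56 without replicate 2 (adjusted p = 0.00125). For Klf2, Klf3 and Foxo1 the same difference was 0.44 (SE 0.30), 0.67 (SE 0.25) and 0.28 (SE 0.18), with adjusted p = 0.641, 0.407 and 0.61. Klf2 was called without knockout pre-Treg replicate 2 (0.75, adjusted p = 0.0403), Klf3 without knockout pre-Treg replicate 1 (0.87, adjusted p = 0.0449) and Igfbp4 without wild-type pre-Treg replicate 2 (1.72, adjusted p = 0.0308). For either pair of neighbouring stages 0 of the 8 were called, where 0.0842% of genes were called for de novo against pre-Tregs and 0.00766% for splenic against de novo Tregs. DESeq2 and edgeR with no filter on low counts called S1pr1 for the first pair, and the fit of only the 2 stages called Igfbp4 for the second. A single knockout effect over all stages called 0 of the 8, where 0.85% of genes were called and 1410 had an unadjusted p under 0.05; the effect on Il6ra was 0.41 on the log2 scale (SE 0.13, adjusted p = 0.236).

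Other genes of the egress and homing programme were read from lists. Ccr7, the chemokine receptor of lymph node entry, rose in de novo over pre-Tregs by 0.96 in knockout (SE 0.20, edgeR adjusted p = 0.00294) and 0.74 in wild type (SE 0.22, adjusted p = 0.0239) on the log2 scale, and it fell in splenic over de novo Tregs, with −1.12 in knockout (adjusted p = 0.00562) and −1.33 in wild type (adjusted p = 0.00322). The wild-type rise of Ccr7 was not called without any 1 of the 4 wild-type thymic libraries (adjusted p of 0.0701 to 0.167). Its splenic fall was not called in knockout without knockout de novo replicate 1 (0.0534) or knockout splenic replicate 2 (0.0619), nor in wild type without wild-type splenic replicate 2 (0.0545). In knockout over wild type, Ccr7 had a log2 fold change of 0.07 in de novo Tregs, with an edgeR adjusted p of 0.667.

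Of 22 other measured genes of S1P signalling and egress, 7 rose and 1 fell in de novo over pre-Tregs in each genotype. Of all genes, 32.4% were called in knockout and 30.7% in wild type, and 15.4% and 16.1% called higher. In knockout over wild type, 0 of 17 tested rose and 1 fell in de novo Tregs, where 6.46% of all genes were called. That 1 was Cerk, the ceramide kinase, with 115 ± 4.14 CPM in knockout and 164 ± 9.70 CPM in wild type (SD, n = 2 each; log2 fold change −0.51, SE 0.08, adjusted p = 0.00361). Cd69, which takes S1PR1 off the surface, had 248 and 275 CPM in knockout splenic Tregs, against 141 and 182 CPM in wild type, without overlap. Its log2 fold change there was 0.70 (SE 0.13, adjusted p = 0.0561 by edgeR), and DESeq2 (adjusted p = 6.81e-05) and limma-voom (0.0443) called it. S1pr2, a receptor of the same family, stood at 0.27 in de novo Tregs (SE 0.14, adjusted p = 0.336).

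Of 22 genes of the FOXO and KLF families and their regulators, 5 rose and 4 fell in knockout and 7 rose and 3 fell in wild type for de novo over pre-Tregs, where 32.4% and 30.7% of all genes were called. Klf6 and Klf9 were among those that rose in both, Klf9 by 1.83 in knockout (SE 0.24) and 1.74 in wild type (SE 0.28) on the log2 scale. In knockout over wild type only Pik3ip1, an inhibitor of PI3 kinase, was called among 20 tested in de novo Tregs, where 6.46% of all genes were called, and it rose, with a log2 fold change of 0.52 (SE 0.11, edgeR adjusted p = 0.0174; 0.0874 without wild-type de novo replicate 2).

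Of 26 naive and resting T cell genes, 4 rose and 1 fell in knockout de novo Tregs, where 6.46% of all genes were called and 2.92% called higher. Txk, a T cell kinase, had 319 ± 16.9 CPM in knockout and 218 ± 1.54 CPM in wild type (SD, n = 2 each; log2 fold change 0.55, SE 0.08, adjusted p = 0.00125), and Pecam1, an adhesion receptor, a log2 fold change of 0.40 (SE 0.07, edgeR adjusted p = 0.00693). Across the thymic stages 12 rose and 5 fell in knockout and 9 rose and 6 fell in wild type, where 32.4% and 30.7% of all genes were called. Tcf7, which encodes the factor TCF1, fell in both, by −1.62 in knockout (SE 0.12) and −1.15 in wild type (SE 0.12). For splenic over de novo Tregs 4 rose and 8 fell in knockout and 3 rose and 6 fell in wild type, where 12.9% and 7.45% of all genes were called, with Ly6c1 up by 2.32 (SE 0.24) and 2.53 (SE 0.24) and Satb1, a chromatin organizer, down at −1.62 (SE 0.17) and −1.25 (SE 0.17).

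Of 18 FOXO target genes, 2 rose and 2 fell in knockout de novo Tregs, and 2 of 16 tested rose in knockout splenic Tregs, where 6.46% and 1.37% of all genes were called. Ctla4, an inhibitory receptor of Tregs, rose at both stages, with 653 ± 3.10 CPM in knockout and 487 ± 26.6 CPM in wild-type de novo Tregs and 551 ± 12.2 and 304 ± 40.7 CPM in knockout and wild-type splenic Tregs (SD, n = 2 each). Among 11 tested partners of IGF binding and IL-6 reception, Socs3, the feedback inhibitor of gp130 signalling, rose in knockout de novo Tregs by a log2 fold change of 0.64 (SE 0.11, edgeR adjusted p = 0.00429) and Igf1r, the IGF1 receptor, fell by −0.56 (SE 0.13, adjusted p = 0.0273). Igf1r was not called without wild-type de novo replicate 2 (adjusted p = 0.116) or knockout de novo replicate 1 (0.0837). In splenic Tregs Igfbp7 rose, with 16.5 ± 1.21 CPM in knockout and 3.46 ± 0.12 CPM in wild type (SD, n = 2 each; log2 fold change 2.26, SE 0.18, adjusted p = 0.00325). With the spread shared over all libraries, each list call of knockout over wild type named here was lost except that of Igfbp7.

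The genes most like each of the 8 were ranked by Pearson correlation of log2 CPM over the 13 libraries, which share stage and table, among 13058 genes; these values only describe. S1pr1 was most like Igtp (r = 0.976) and then Klf2 (r = 0.968), another of the 8. Klf2 was most like Gabrr2, Apol9b and Apol9a, S1pr4 like the integrin chain Itgb7 (r = 0.997), Ltb and Zc3h12d, and Klf3 like Ms4a6b, Trim5 and Zfp937. Foxo1 was most like Tgtp2, Tgtp1 and Shisa5, Il6ra like Afmid (r = 0.99), Ncmap and Aven, and Dapl1 like Epsti1, Samd10 and Zcchc18. Igfbp4 had the weakest matches, Rph3al (r = 0.873), Pdlim4 and Zbtb8a.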

How the data were processed

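The authors deposited whole-number read counts by gene, not normalized, in one table per stage. Per the submitters' processing notes, the build was GRCm38 and the tools included STAR 2.5.2 and, for counting, featureCounts (Subread 1.5.2). No annotation release or strandedness is stated there. The pre-Treg table lists 47729 genes and each of the others 22048, and all sample columns were used (0 left out), and no replicates were alike within sampling noise. Sample titles gave the groups and replicates.

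In R 4.3.3, edgeR 4.0.16 (TMM, filterByExpr at a count of 10 and a total of 15, quasi-likelihood F test, Benjamini-Hochberg over all genes tested) was fitted for genotype at each stage. Stage, interaction and all-stage contrasts used 13058 genes over all 13 libraries. CPM per kilobase divides by the gene length deposited in the pre-Treg table. SE is the log2 fold change over the square root of F. Fits were tested on simulated data.

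The members and lists were chosen with earlier results of these data known. Named are all members, Rel, Foxp3, Ccr7, Cd69 and S1pr2, up to 4 called genes of each list per comparison by adjusted p (some of these are printed), and for each member the 3 most correlated genes (log2 CPM, prior count 2), leaving out model-named genes. A further gene of that rule is not reported here. Lists held S1P and egress, FOXO and KLF, naive T cell, FOXO target, and IGF and IL-6 genes, and markers of CD4 T, B, myeloid, endothelial, CD8 T and NK, immature thymocyte and erythroid cells. Alternatives were RLE size factors, upper-quartile scaling, DESeq2 1.42.0, limma-voom 3.58.1, no filter, left-out libraries, a replicate block, a shared spread, genes common to all tables and only the 2 stages compared.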

Additional observations from a re-analysis of the deposited data

Results flagged for a closer look

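Igfbp4 was flagged for its knockout effect in splenic minus de novo Tregs. With only the libraries of these 2 stages in the fit, it was −1.27 on the log2 scale (edgeR adjusted p = 0.000804). That fit was chosen after seeing the data. In the fit of all libraries the value was −1.28 and not called (SE 0.49, adjusted p = 0.776 by edgeR). Igfbp4 was higher in knockout de novo Tregs and close to wild type in the spleen. S1pr1 was flagged because every knockout library was lower than wild type in pre-Tregs and every one higher in de novo Tregs. The difference of its knockout effects, de novo minus pre-Tregs, was 1.33 (SE 0.27, adjusted p = 0.077 by edgeR). Klf3 was flagged for the same opposite order, with a difference of 0.67 (SE 0.25, adjusted p = 0.407). The share of all genes with such an order was not counted. No group held 4 or more libraries, so single libraries were not screened for standing apart.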

How the results depend on the processing

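Of the 8 genes called per comparison, the count changed as follows, and the cause was not tested unless the construction shows it. DESeq2 gave 1 in pre-Tregs, 1 for the interaction (no filter also gave 1), 1 for the knockout effect in de novo minus pre-Tregs (no filter also gave 1) and 3 for splenic over de novo Tregs in wild type, as did limma-voom (3) and no filter (3). The spread shared over 13 libraries gave 1 in pre-Tregs and 0 in de novo Tregs. With only the 2 stages compared, 4 were called in knockout and 5 in wild type for splenic over de novo Tregs. The labels do not say that replicate numbers pair libraries, and same-numbered libraries did not deviate together by title (r = −0.0202 in de novo, −0.106 in splenic and −0.156 and −0.174 in pre-Tregs). The descriptions number the knockout pre-Treg libraries otherwise: title replicate 3 is 1, replicate 1 is 2 and replicate 2 has no number. By those numbers the pre-Treg pairs had r = −0.044 and 0.156. A replicate block on them, chosen after seeing the data, gave 2 of the 8 (Klf2 and S1pr1) and 490 of all genes. In that fit the unnumbered knockout replicate 2 stood in a block of its own and added nothing to the genotype effect. The effect therefore rests on the 2 numbered pairs and not on all pre-Treg libraries. The replicate block by title gave 1 for de novo over pre-Tregs in wild type. For splenic over de novo Tregs it gave 1 in knockout and 0 in wild type. By construction these blocked stage contrasts compare single replicate levels, not group means, so they do not check the stage results. They set de novo replicate 1 against pre-Treg replicate 3, which wild type lacks, and splenic replicate 2 against de novo replicate 1. Over all genes the block by title gave 77 calls for genotype in pre-Tregs, 962 in de novo and 361 in splenic Tregs. In pre-Tregs, knockout replicate 3 stood in a block of its own and added nothing to the genotype effect. The crossed pairing of splenic libraries gave 803 calls.

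Leaving out 1 library at a time gave 0 to 1 of the 8 in pre-Tregs, 2 to 3 in de novo Tregs, 0 to 4 in splenic Tregs, 0 to 2 for the interaction, 0 to 2 for the knockout effect in de novo minus pre-Tregs, 1 to 4 for splenic over de novo Tregs in knockout and 0 to 5 in wild type. Where an arm was left with 1 library, it was assumed to vary like the others. The number of calls over all genes moved in these fits as well, so the changed counts are not particular to the 8 genes. Values that changed sign as libraries were left out are given here as log2 ranges. For knockout over wild type in de novo Tregs the range was −0.10 to 0.10 for Klf2 and −0.072 to 0.11 for S1pr4. For knockout over wild type in splenic Tregs the range was −0.093 to 0.18 for S1pr1, −0.060 to 0.0032 for Foxo1 and −0.32 to 0.31 for Dapl1. For knockout over wild type in pre-Tregs the range was −0.47 to 0.12 for S1pr4 and −0.35 to 1.28 for Igfbp4. For the knockout over wild type over all stages the range was −0.081 to 0.10 for S1pr4 and −0.085 to 0.054 for Klf3. For the knockout effect in de novo Tregs minus that in pre-Tregs the range was −0.10 to 0.49 for S1pr4 and −0.17 to 0.46 for Il6ra. For splenic Tregs over de novo Tregs in wild type the range was −0.14 to 0.050 for S1pr4 and −0.031 to 0.037 for Foxo1. For splenic Tregs over de novo Tregs in knockout the range was −0.012 to 0.18 for S1pr4 and −0.0087 to 0.046 for Foxo1. For the knockout effect in splenic Tregs minus that in de novo Tregs the range was −0.02 to 0.14 for Klf3, −0.013 to 0.056 for Foxo1 and −0.32 to 0.034 for Il6ra. For de novo Tregs over pre-Tregs in wild type the range was −1.12 to 0.51 for Igfbp4 and −0.35 to 0.17 for Cd69. For de novo Tregs over pre-Tregs in knockout the range was −0.10 to 0.29 for Cd69. Other settings reversed only values near 0. Klf2 in de novo Tregs was 0.0029 with RLE size factors, 0.0029 with DESeq2, 0.0014 with limma-voom and 0.0010 with the block. Dapl1 in splenic Tregs was −0.017 with limma-voom, −0.0047 with the block and −0.0047 with the crossed block. For splenic over de novo Tregs in wild type, S1pr4 was 0.071 with the block, and Foxo1 0.029 with the block and 0.0017 with upper-quartile scaling. The block values of this stage contrast compare single replicate levels, not group means.

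Over all genes, pre-Tregs had 0 calls by edgeR, 0 by limma-voom, 88 by DESeq2, 14 with no filter and 71 with the shared spread, and de novo Tregs had 766 calls and 100 with the shared spread. Splenic Tregs had 168 calls, 526 by DESeq2, 475 with no filter, 60 with the shared spread and 220 to 2508 with 1 library left out. The interaction had 21 calls, 199 with no filter, 496 by DESeq2 and 4 with the block. The all-stage effect had 111 calls, 191 by limma-voom, 327 by DESeq2 and 35 with the block. For de novo over pre-Tregs the block gave 832 calls in knockout and 164 in wild type, against 4228 and 4015. For splenic over de novo Tregs the block gave 607 in knockout and 295 in wild type, against 1681 and 973. By its construction the block compared single replicate levels in these stage contrasts, not group means, so its counts do not check the stage results. For splenic over de novo Tregs, only the 2 stages gave 3589 and 2961, and DESeq2 gave 1572 in wild type. Upper-quartile scaling put the median gene of de novo over pre-Tregs in knockout at −0.11, beside −0.058. Dapl1, with 20 to 67 counts in pre-Tregs, rests on few reads, and the pre-Treg spread limits every comparison that uses those libraries.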
